A study of Arabidopsis thaliana with 6 samples.

Results

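The SWEET genes of Arabidopsis encode sugar transporters, and 10 of them, SWEET1, SWEET2, SWEET4 and SWEET11 to SWEET17, are described here across the first and the third dehydration stress. They were chosen by their locus identifiers from the 33555 genes listed. Messenger RNA of rosette leaves was sequenced in 6 libraries, 2 biological replicates for each of 3 conditions. W plants were watered and sampled after a night out of soil and before any stress, S1 plants were air-dried once for 2 h, and S3 plants were sampled in air-drying number 3, also of 2 h, with 22 h of full rehydration after each earlier one. All plants were Col-0 grown in soil, although the labels also give WS as the genotype of every sample, and no transgene or mutation is named.

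The values are FPKM, the number of sequenced fragments of a gene divided by its transcript length in kilobases and by the total of fragments mapped in that library. The tables hold no read counts. A watered control kept out of soil for as long as the S3 plants was not analysed here, so repeated stress and time since the start of the treatment cannot be told apart in S3. The headers show that W and S1 were quantified together and S3 in a separate run, so S3 levels are set beside the others across separately made tables. Reads were longer in W than in S1 and S3, which cannot be told apart from the stress in comparisons with W.

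SWEET proteins form pores through which sugars pass down their concentration gradient, in either direction and without an energy source. In leaves, SWEET11 and SWEET12 at the plasma membrane of phloem parenchyma cells release sucrose to the cell wall space, from which the sucrose/proton symporter SUC2 loads it into the phloem. SWEET13, SWEET14 and SWEET15 belong to the same sucrose-transporting clade, SWEET1 and SWEET4 carry hexoses across the plasma membrane, and SWEET2, SWEET16 and SWEET17 lie in the vacuolar membrane.

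The upstream sequences of SWEET4, SWEET13, SWEET14 and SWEET15 are shown because the levels of SWEET4 and SWEET15 differed most between conditions, and because SWEET13 and SWEET14 are close relatives with different levels. Each is the 250 bases before the annotated start, 5′ to 3′ on the strand of the gene, which is the minus strand for all 10 members, from the TAIR10.1 assembly with its RefSeq annotation. Capitals mark matches on either strand to ACGTG, the core of the abscisic acid response element.
SWEET4, chr3:10409978-10410227: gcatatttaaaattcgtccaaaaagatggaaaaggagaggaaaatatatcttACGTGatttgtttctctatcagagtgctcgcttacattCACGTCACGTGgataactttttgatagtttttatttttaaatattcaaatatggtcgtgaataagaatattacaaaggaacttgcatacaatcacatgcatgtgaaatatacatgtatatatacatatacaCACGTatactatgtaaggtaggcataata
SWEET13, chr5:20667313-20667562: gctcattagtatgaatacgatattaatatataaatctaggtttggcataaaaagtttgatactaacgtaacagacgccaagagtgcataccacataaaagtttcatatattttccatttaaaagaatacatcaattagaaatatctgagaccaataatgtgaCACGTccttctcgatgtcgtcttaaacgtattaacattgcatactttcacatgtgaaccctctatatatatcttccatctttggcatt
SWEET14, chr4:12856542-12856791: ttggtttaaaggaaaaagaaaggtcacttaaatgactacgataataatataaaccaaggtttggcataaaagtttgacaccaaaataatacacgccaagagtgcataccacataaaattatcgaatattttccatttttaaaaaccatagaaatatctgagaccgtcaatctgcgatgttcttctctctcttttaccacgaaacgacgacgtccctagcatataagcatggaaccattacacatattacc
SWEET15, chr5:4183355-4183604: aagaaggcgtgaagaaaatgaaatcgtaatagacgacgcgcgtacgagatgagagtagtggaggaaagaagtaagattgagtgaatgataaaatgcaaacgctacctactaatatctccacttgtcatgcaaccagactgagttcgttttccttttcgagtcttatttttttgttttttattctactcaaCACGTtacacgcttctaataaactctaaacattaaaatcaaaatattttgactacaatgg

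The SWEET4 window held 5 matches to ACGTG, the first bases of which lie 198, 160, 155, 154 and 29 bases before the start. Those at 155 and 154 overlap and together form the palindrome CACGTG, the G-box. SWEET13 held 1 match, 88 bases before the start, and SWEET15 held 1 match, 60 bases before it. No other member held ACGTG, which occurs in 22.9% of 27443 windows of the same length before annotated genes, against 3 of the 10 members. CACGTG occurs in 6.49% of these windows and in 1 member. CCGAC, the core of the dehydration-responsive element, occurs in 12.0% of them and in 0 of the 10 members. A match is a run of letters and not a binding site. The windows of SWEET13 and SWEET14 aligned over 155 bases with 83.2% identity, the longest alignment among the 10 members, and the next, between SWEET11 and SWEET12, covered 88 bases with 77.3% identity.

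Close relatives could share reads, so their transcripts were compared. SWEET11 and SWEET12 aligned over 1158 bases with 79.7% identity, and SWEET13 and SWEET14 over 833 bases with 83.2% identity. The longest runs that each pair shares are shown because reads longer than these runs can tell the genes apart.
SWEET11 and SWEET12: gtcatatggctcctttatggtcttgctct
SWEET13 and SWEET14: agtgtggagtttatgcctttctct
These runs are 29 and 24 bases long, and no window of 75 bases in the transcripts of any member was found in another gene. SWEET1, at chr1:7511750-7513481, overlaps AT1G21450 on the opposite strand by 52 bases. The library kit does not mark the strand, so reads in that overlap cannot be assigned to either gene. AT1G21450 had 6.01 and 7.19 FPKM in W, 18.6 and 19.2 during S1, and 26.4 and 26.8 during S3.

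Of the 10 members, 9 had a level above 0 in every library, and SWEET14 was listed at 0 FPKM in all 6. A change was called when its adjusted p in limma was at most 0.05, its log2 fold change was at least 1 in either direction, and a condition mean lay above the 25th percentile of 0.831 FPKM. Fold changes were fitted on log2(FPKM + 1), a scale that understates changes of genes with low levels. In S1 relative to W, 3 of the 9 members tested rose (SWEET1, SWEET4 and SWEET12) and 2 fell (SWEET2 and SWEET13). The criteria called 25.8% of all 24759 genes in this comparison, 13.7% as higher and 12.1% as lower. On p alone, 8 of the 9 members and 53.7% of all genes passed. The median log2 fold change was 0.62 over the 9 members and 0.0029 over all genes. In S3 relative to S1, 3 members rose (SWEET11, SWEET13 and SWEET15) and 1 fell (SWEET16), where 12.3% of all genes were called, 5.55% as higher and 6.71% as lower. On p alone, 5 of the 9 members and 32.1% of all genes passed. The medians were 0.36 over the members and 0 over all genes. In S3 relative to W, 6 members rose and 2 fell, where 29.7% of all genes were called, 15.3% as higher and 14.4% as lower. On p alone, all 9 members tested and 57.5% of all genes passed. The medians were 2.09 over the members and 0.011 over all genes. Both comparisons with W share the W libraries, and both comparisons with S1 share the S1 libraries.

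**Figure D1:**
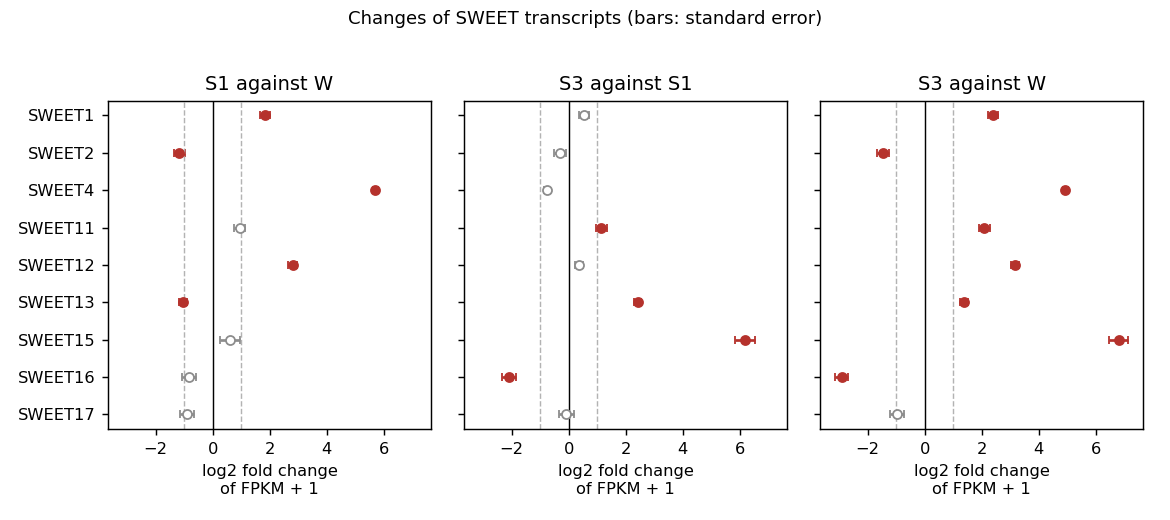
Log2 fold change of FPKM + 1 for each of the 9 SWEET members tested, from W to S1, from S1 to S3 and from W to S3. Points are limma estimates with bars of 1 standard error, filled where the change was called, and dashed lines mark a log2 fold change of 1 in either direction. SWEET4 lies farthest to the right from W to S1, at 5.70, and SWEET15 from S1 to S3, at 6.18.

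The plasma membrane hexose transporters SWEET4 and SWEET1 were much higher in both stresses than in W. SWEET4 (AT3G28007, chr3:10408073-10409977, 6 exons) had 2.23 and 2.64 FPKM in the W libraries, 180 and 175 during S1, and 105 and 103 during S3. The 3 conditions did not overlap, and the replicates of each lay close together. The mean of S1 was 73.0 times that of W, with means of 178 ± 3.49 FPKM in S1 and 2.44 ± 0.290 in W (SD, n = 2 each). On the log2 scale SWEET4 rose by 5.70 (SE 0.09, adjusted p = 3.38e-05 in limma), the 112th highest change among the 24759 genes tested. Its S3 mean of 104 ± 1.13 FPKM was 42.6 times that of W, with a log2 fold change of 4.93 (adjusted p = 3.87e-05). Between S1 and S3 its log2 fold change was -0.77 (adjusted p = 0.00395), which passed on p but not on the size of the change.

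SWEET1 (AT1G21460) had 10.2 and 14.8 FPKM in W, 49.4 and 43.9 during S1, and 66.6 and 70.2 during S3. Both libraries of each later condition lay above those of the one before. SWEET1 rose 3.73-fold in means from W to S1 (log2 fold change 1.84, SE 0.18, adjusted p = 0.00105 in limma) and was 5.47 times the W mean in S3 (2.38, adjusted p = 0.000399). From S1 to S3 its log2 fold change was 0.54 with an adjusted p of 0.0788.

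SWEET11 and SWEET12, the sucrose exporters of phloem parenchyma, were both higher in S3 than in W. The change called on the way lay between W and S1 for SWEET12 and between S1 and S3 for SWEET11, and the difference between these genes was not tested. SWEET12 (AT5G23660, chr5:7971647-7973995) had 17.2 and 15.9 FPKM in W, 107 and 139 during S1, and 165 and 148 during S3. All stress libraries lay above W, and S3 lay above S1 with a gap of less than 10 FPKM. The mean of SWEET12 rose 7.43-fold from W to S1 (log2 fold change 2.81, SE 0.15, adjusted p = 0.000195 in limma), and its change from S1 to S3 was 0.36 (adjusted p = 0.132).

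SWEET11 (AT3G48740, chr3:18052466-18054832) had 75.3 and 79.2 FPKM in W, 129 and 175 during S1, and 375 and 292 during S3. The conditions did not overlap, and the replicates of S1 and of S3 were farther apart than those of W. SWEET11 was 1.97 times the W mean in S1, with a log2 fold change of 0.95 (SE 0.19, adjusted p = 0.0114 in limma) just short of the threshold of 1. It rose 2.20-fold in means from S1 to S3 (log2 fold change 1.14, adjusted p = 0.0121). Both calls turn on single libraries. Without S1 replicate 1 the SWEET11 change from W to S1 was 1.17 and passed, and the change from S1 to S3 was 0.92 (adjusted p = 0.0664) and did not. Without S3 replicate 1 the latter was 0.96 (adjusted p = 0.0784). Against W, SWEET11 rose by 2.09 on the log2 scale in S3 (adjusted p = 0.000709), which held without any 1 library.

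The ratio of SWEET12 to SWEET11 FPKM was 0.228 and 0.201 in W, 0.829 and 0.795 during S1, and 0.441 and 0.507 during S3. It was thus highest in S1, intermediate in S3 and lowest in W, with no overlap between conditions. SUC2, the symporter of the companion cells, had 52.7 and 44.1 FPKM in W, 237 and 254 during S1, and 224 and 261 during S3, and rose by 2.32 (log2) in S1 relative to W (adjusted p = 0.000233 in limma). The ratio of SWEET11 to SUC2 was 1.43 and 1.79 in W, 0.545 and 0.688 during S1, and 1.68 and 1.12 during S3.

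The phloem markers APL, SEOR1, PP2-A1, SUC2 and AHA3 were also higher in S1 than in W. Their summed level was 137 to 155 FPKM in W, 675 to 764 during S1 and 623 to 654 during S3, with 4 of 5 markers called higher in S1 and in S3 than in W and none at 0. From S1 to S3, where SWEET11 rose, limma called 0 of the 5, and 2 had an unadjusted p under 0.05, both with lower means in S3. The share of all genes at that unadjusted cutoff was not counted, here or for the lists below. On adjusted p alone SEOR1 passed (0.0174 in limma, log2 fold change -0.86), as did 32.1% of all genes. SEOR1 averaged 18.6 FPKM during S1, against 9.55 in W and 9.86 during S3. The xylem markers IRX3, IRX5 and XCP1 summed to 8.38 to 10.1 FPKM in W, 17.0 to 22.6 during S1 and 44.3 to 51.2 during S3. All 3 were called higher in S3 than in W, and XCP1 was also called higher in S1 than in W and in S3 than in S1. From S1 to S3, IRX3 and IRX5 also rose on adjusted p (0.0362 and 0.0295 in limma) but missed the threshold of size. The mesophyll markers LHCB1.1, CAB3 and RCA summed to 23800 to 30790 FPKM in W, 5155 to 6596 during S1 and 3518 to 4877 during S3. Each was called lower in S1 and in S3 than in W. From S1 to S3 limma called 0 of these 3, and 2 had an unadjusted p under 0.05. LHCB1.1 and CAB3 had lower means in S3 and RCA a higher one (1669 FPKM in S1 and 2348 in S3). Whether LHCB1.1 and CAB3 share reads was not checked, so they may not be separate markers. The remaining mesophyll marker, RBCS1A, had 9517 and 6085 FPKM during S1 and 1392 and 1732 during S3 but was listed at 0 in both W libraries, although it is among the most abundant leaf transcripts, so a listed 0 in these tables can be a failed estimate. Of the guard cell markers, KAT1 was called higher and MYB60 lower in S1 and in S3 than in W, and FAMA neither. KAT1 averaged 5.38 FPKM in W, 33.6 during S1 and 15.0 during S3. Of the epidermis markers ATML1, FDH and GL2, only FDH was called, higher in S1 and in S3 than in W. The seed and pollen markers CRA1, CRU3 and LAT52-like summed to at most 0.688 FPKM in any library. Whether the share of phloem or xylem cells or the RNA per cell differed cannot be told apart in whole leaves, and the part of either in the SWEET levels was not tested.

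SWEET13, a sucrose transporter of the same clade, was lower in the first stress and higher in the third than in W, at low levels throughout. SWEET13 (AT5G50800, chr5:20665068-20667312) had 1.94 and 1.56 FPKM in W, 0.379 and 0.292 during S1, and 5.78 and 6.52 during S3. Its replicates lay close together and the conditions did not overlap. Relative to W it fell by 1.04 on the log2 scale in S1 (SE 0.13, adjusted p = 0.00213 in limma), and the W mean was 5.22 times that of S1. The change was near the threshold and was -0.94 without W replicate 1 and -0.99 without S1 replicate 2. SWEET13 then rose by 2.42 from S1 to S3 (adjusted p = 0.000691), an 18.3-fold ratio of means and the 205th highest change among all genes tested. In S3 it was 3.51 times the W mean (log2 fold change 1.38, adjusted p = 0.00072). With a pseudocount of 0.1, the change was -2.09 from W to S1 and 3.85 from S1 to S3. SWEET13 was the only member whose called changes had opposite signs in these comparisons. The levels of S1 rest on few reads, about 15.8 in replicate 1.

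SWEET14 (AT4G25010, chr4:12854385-12856541), the nearest relative of SWEET13, was listed at 0 FPKM in all libraries and was not tested. Since a listed 0 can be a failed estimate, its transcript may or may not have been present.

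**Figure D2:**
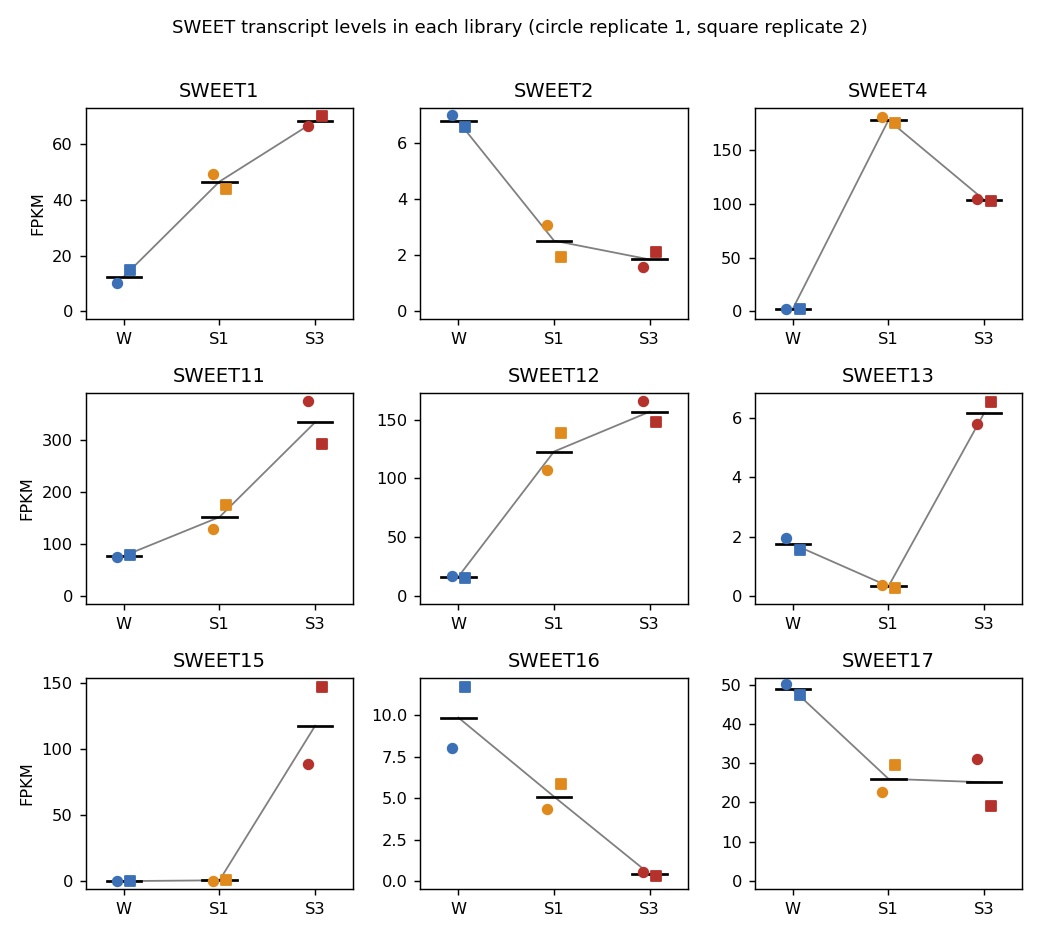
FPKM of each of the 9 SWEET members with a level above 0, by condition and with a scale of its own for each gene. Circles are replicate 1, squares replicate 2, and the bars and the line join the condition means. SWEET15 lies between 0.0331 and 1.06 FPKM in W and S1 and between 88.5 and 147 in S3, and SWEET16 lies at 8.03 and 11.7 FPKM in W but at 0.548 and 0.305 in S3.

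SWEET15, first described as the senescence-associated gene SAG29, was near the limit of detection in W and S1 and among the most abundant SWEET transcripts in S3. SWEET15 (AT5G13170, chr5:4181042-4183354) had 0.0402 and 0.0331 FPKM in W, 0.223 and 1.06 during S1, and 88.5 and 147 during S3. The S3 libraries differed from each other by more than 50 FPKM and lay far above all others. Its value in W replicate 1 corresponds to about 1.2 reads and that in S1 replicate 1 to about 9.9, against about 4339 in S3 replicate 1, so no ratio of means is given relative to W, and its fitted changes relative to W depend on the pseudocount. SWEET15 rose by 6.18 on the log2 scale from S1 to S3 (SE 0.35, adjusted p = 0.000744 in limma), the 7th highest change among the 24759 genes tested, and the ratio of means was 183. That ratio rests on S1 libraries that differ from each other, and was 111 without S1 replicate 1 and 528 without S1 replicate 2. From W to S1 its log2 fold change was 0.62 with an adjusted p of 0.199. With a pseudocount of 0.1 the SWEET15 change from S1 to S3 was 7.54 and that from W to S1 was 2.16.

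Markers of leaf senescence were also higher under stress. SAG13, NAP, ORE1 and SEN1 were called higher in S1 and in S3 than in W. From S1 to S3, limma called 0 of the 4, and 1 had an unadjusted p under 0.05. Their summed level, with SAG12, was 18.6 to 59.6 FPKM in W, 523 to 641 during S1 and 1026 to 1266 during S3. These markers differed in direction from S1 to S3, where the means of SEN1 were 282 and 859 FPKM, those of NAP 103 and 123, and those of ORE1 185 and 137. SAG12, a marker of late developmental senescence, was listed at 0 in all 6 libraries. The dehydration markers RD29A, RD29B and RAB18 summed to 186 to 218 FPKM in W, 4234 to 4633 during S1 and 15400 to 17440 during S3, and RD29B and RAB18 were called higher in S3 than in S1. RAB18 took most of the S3 sum, with means of 335 FPKM in S1 and 11500 in S3, while those of RD29A were 3623 and 2263 (log2 fold change -0.68, adjusted p = 0.0574 in limma). The part of these changes in the level of SWEET15 was not tested.

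Of the 3 transporters of the vacuolar membrane, SWEET2 fell in both stresses and SWEET16 in S3 relative to W, and no change of SWEET17 was called. SWEET16 (AT3G16690, chr3:5684317-5686544, 5 exons), which carries hexoses and sucrose, had 8.03 and 11.7 FPKM in W, 4.32 and 5.88 during S1, and 0.548 and 0.305 during S3. Each condition lay below the one before, without overlap. From S1 to S3 SWEET16 fell by 2.09 on the log2 scale (SE 0.24, adjusted p = 0.00393 in limma), the 464th lowest change among all genes tested, and the S1 mean was 12.0 times that of S3. From W to S1 its log2 fold change was -0.82 (adjusted p = 0.0345) and did not reach the threshold of size, but was -1.07 and called without W replicate 1. From W to S3 SWEET16 fell by 2.91 (adjusted p = 0.000474), with a W mean 23.1 times that of S3. With a pseudocount of 0.1 its change from S1 to S3 was -3.33 and that from W to S3 was -4.26. The S3 level of SWEET16 in replicate 1 corresponds to about 30.5 reads.

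SWEET17 (AT4G15920, chr4:9030486-9033648), a fructose transporter, had 50.2 and 47.3 FPKM in W, 22.6 and 29.4 during S1, and 31.1 and 19.1 during S3. S1 and S3 overlapped, and both lay below W. Its log2 fold changes were -0.89 in S1 (SE 0.25, adjusted p = 0.0329 in limma) and -0.97 in S3 (adjusted p = 0.0235) relative to W, both short of the threshold of size. Without S1 replicate 2 the former was -1.08 but failed on p, and without S3 replicate 1 the latter was -1.31 and was called. From S1 to S3 the SWEET17 change was -0.08 (adjusted p = 0.866), and its sign turned when every library was scaled to 1 common sum. The ratio of SWEET17 to SWEET16 FPKM was 6.26 and 4.04 in W, 5.23 and 5.003 during S1, and 56.8 and 62.7 during S3.

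SWEET2 (AT3G14770, chr3:4957334-4959704), a vacuolar glucose transporter best known from roots, had 7.0 and 6.58 FPKM in W, 3.09 and 1.96 during S1, and 1.57 and 2.13 during S3. S1 and S3 overlapped below W. SWEET2 fell by 1.16 on the log2 scale in S1 relative to W (SE 0.21, adjusted p = 0.00707 in limma) and by 1.46 in S3 (adjusted p = 0.00284). Without S1 replicate 2 the former was -0.93 and was not called.

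With the signs of the called changes from W to S1 and from S1 to S3, SWEET1, SWEET4 and SWEET12 had the response [+/=], SWEET2 [-/=], SWEET11 and SWEET15 [=/+], SWEET13 [-/+], SWEET16 [=/-] and SWEET17 [=/=]. An equals sign stands for a change that did not pass, not for equal levels. Of the 5 members of the sucrose-transporting clade, SWEET11 to SWEET15, no more than a pair shared a class, and SWEET14 had none.

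The order of the levels differed between conditions, and since FPKM is scaled to transcript length, genes can be set side by side. In W, SWEET11 had the highest level, followed by SWEET17 and SWEET12, then SWEET1 and SWEET16, which overlapped, and below them SWEET2, SWEET4, SWEET13 and SWEET15. In S1, SWEET4 was highest, ahead of SWEET11 and SWEET12, which overlapped, then SWEET1, SWEET17, SWEET16 and SWEET2, with SWEET15 and SWEET13 overlapping below. In S3, SWEET11 was highest, then SWEET12, then SWEET15 and SWEET4, which overlapped, and then SWEET1, SWEET17, SWEET13, SWEET2 and SWEET16. Over all genes tested, the mean level of SWEET4 stood at percentile 40.9 in W, 96.9 during S1 and 94.7 during S3. That of SWEET15 stood at percentile 15.0 in W, 28.2 during S1 and 95.5 during S3, and that of SWEET16 at 64.4, 51.2 and 26.2.

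**Figure D3:**
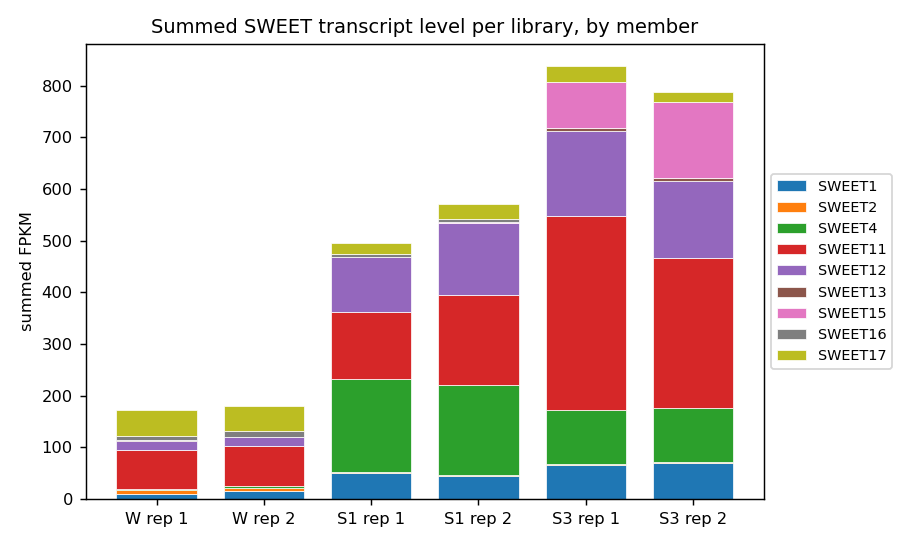
Summed FPKM of the SWEET members in each library, stacked by gene. The sum is 172 and 180 in the W libraries, 496 and 571 during S1 and 839 and 787 during S3, and SWEET17 takes 29.2% and 26.3% of it in W but 3.71% and 2.42% in S3.

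Summed over the 10 members, the SWEET level was 172 and 180 FPKM in W, 496 and 571 during S1, and 839 and 787 during S3. The 7 genes of plasma membrane transporters took 62.1% and 63.5% of it in W, 94.0% and 93.5% during S1, and 96.04% and 97.3% during S3. The 3 vacuolar genes summed to 65.2 and 65.6 FPKM in W, 30.0 and 37.2 during S1, and 33.3 and 21.5 during S3. SWEET4 took 1.30% and 1.47% of the summed level in W, 36.4% and 30.7% during S1, and 12.5% and 13.1% during S3. SWEET15 took 10.6% and 18.6% in S3, and at most 0.186% in any library of W or S1. These shares describe transcripts and carry no test.

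The 7 other SWEET genes, SWEET3 and SWEET5 to SWEET10, were hardly detected. Their summed level was 0.155 to 0.407 FPKM in W, 0.527 to 0.896 during S1 and 0.309 to 0.476 during S3, with SWEET3 and SWEET9 at 0 in all libraries. Of the 5 tested, 0 were called by limma in any of the 3 comparisons. The number with an unadjusted p under 0.05 was 1 from W to S1, 1 from S1 to S3 and 0 from W to S3, and the adjusted p was at most 0.05 only for SWEET5 in S1 relative to W.

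Other sugar carriers and sucrose enzymes were counted with the same criteria, beside the share of all genes called given above. Of 6 genes tested in the SUC family of sucrose symporters, 3 rose (SUC2, SUC4 and SUC7) and 1 fell from W to S1. The median log2 fold change was 1.08. SUC7 had only 0 and 0.0282 FPKM in W and 1.52 and 1.72 during S1, and whether it encodes a working carrier was not tested. It has close copies in its family, so its reads may be shared. From S1 to S3 limma called 0 SUC genes, and the median was -0.67. An unadjusted p under 0.05 was found for 5 of the 6, with changes in both directions, but the share of all genes at that cutoff was not counted. On adjusted p alone 3 of the 6 passed, also in both directions, where 32.1% of all genes did. The SUC1 change from W to S1 was -1.17 (adjusted p = 0.0252 in limma), and the call was lost without any 1 of the W or S1 libraries (adjusted p 0.0748 to 0.143) and without the filter on low values (0.0785). Of 13 STP hexose symporters, 1 rose and 1 fell in S1, and 4 rose from S1 to S3, with medians of 0.014 and 0.019. The number that rose from S1 to S3 was 2 to 4 with each library left out, and the calls of STP1 and STP7 were each lost without S1 replicate 1, S3 replicate 1 or S3 replicate 2. STP13, which takes up hexoses at the plasma membrane, had 42.9 and 45.4 FPKM in W, 232 and 260 during S1, and 198 and 192 during S3, and was called higher in both stresses than in W.

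Of the 9 other vacuolar sugar carriers, 2 rose and 2 fell from W to S1, and 1 rose and 1 fell from S1 to S3. Without S1 replicate 2, the number that fell from W to S1 was 1, with ERDL4 lost. ERDL6, a glucose exporter of the vacuole, had 41.6 and 58.2 FPKM in W, 225 and 258 during S1, and 51.0 and 57.9 during S3, so S3 lay within the range of W. TST2, a proton-coupled importer of sugars into the vacuole, had 29.1 and 28.4 FPKM in W, 27.2 and 27.2 during S1, and 85.0 and 95.2 during S3, and rose by 1.69 on the log2 scale from S1 to S3 (adjusted p = 0.000628 in limma). SWEET16 fell in that comparison.

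Of 7 genes with invertase names, 3 rose in S1, and 1, CWINV3, rose and 2 fell from S1 to S3. Invertases split sucrose into hexoses, but a name does not show the activity of each product. With each library left out, 2 to 3 rose in S1, and 0 to 1 rose and 1 to 2 fell from S1 to S3. From W to S1 the call lost was that of VI2, without W replicate 1 or S1 replicate 2. From S1 to S3 the calls lost were those of VI1 without S1 replicate 2 or either S3 library, and of CWINV1 without S1 replicate 1. In the same comparison that of CWINV3 was lost without S1 replicate 1 or either S3 library. The vacuolar invertase VI1 had 11.2 and 17.2 FPKM in W, 161 and 221 during S1, and 58.2 and 61.1 during S3. Of 6 sucrose synthases, 4 rose from W to S1 and 1, SUS3, rose from S1 to S3. SUS3 had 0.438 and 0.787 FPKM in W, 9.96 and 11.5 during S1, and 168 and 197 during S3. It rose by 3.97 on the log2 scale from S1 to S3 (adjusted p = 0.000427 in limma), the comparison in which SWEET15 rose. Of 4 sucrose phosphate synthases, which make sucrose, 1 rose and 1 fell in S1 and 3 rose from S1 to S3, with medians of 0.14 and 1.26. Without S3 replicate 1, the latter number was 2, with SPSC lost. SPSA1 had 52.9 and 55.5 FPKM in W, 52.4 and 59.1 during S1, and 130 and 149 during S3.

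**Figure D4:**
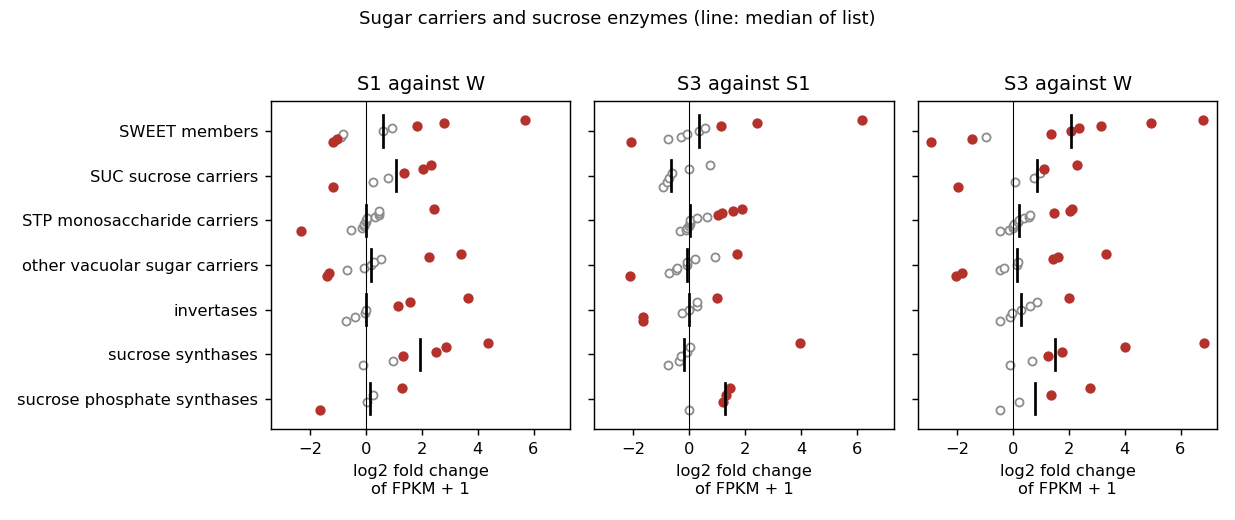
Log2 fold change of FPKM + 1 for each gene tested in the SWEET members and in 6 other lists of sugar carriers and sucrose enzymes, in the 3 comparisons. Points are single genes, filled where the change was called, and vertical bars are list medians. The SWEET median is 0.62 in S1 against W, 0.36 in S3 against S1 and 2.09 in S3 against W.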

How the data were processed

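Per the labels and the methods, the authors mapped reads to TAIR10 with TopHat at default parameters and computed FPKM per gene and replicate with Cuffdiff, and the deposited FPKM values were used without further normalization. TopHat is listed as version 0.12.8 and CASAVA as 1.8.2 in the submitters' processing notes, while the methods of the paper name a different TopHat version. Cuffdiff was not rerun, since it needs reads.

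The 24759 genes above 0 in any library were fitted on log2(FPKM + 1) by limma 3.58.1, under R version 4.3.3, as a linear model of the condition over all 6 libraries and with a variance trend, two-sided with Benjamini-Hochberg adjustment, and the fit was tested on simulated data. The model left 3 residual degrees of freedom, and moderation added 2.07. Sums of FPKM were 891240 to 974046 per library, with 21139 to 22457 genes above 0. Reads per value are approximate, from transcript length and the commonest low value, and are given only for replicate 1 libraries. The low value is FPKM multiplied by transcript length in kilobases, and stands for the FPKM of 1 read on a transcript of 1 kilobase. Replicate 1 of W gave 0.0438, replicate 1 of S1 gave 0.0305, and replicate 1 of S3 gave 0.0276. This low value was not recovered reliably for the replicate 2 libraries, so no counting intervals are given. The paper gives mapped reads for every library, and both W libraries had fewer than any library of S1 or S3.

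The 14373 genes that averaged 5 FPKM or more in a condition had a median log2 fold change of 0.09 from W to S1, 0.01 from S1 to S3 and 0.14 from W to S3, which was not subtracted from the changes reported. Locus identifiers were joined to TAIR10.1, in which 32815 (97.8%) were found. All 10 members are named, and from each other list up to 4 genes past the criteria with the highest mean level could be named, with marker lists in full. Members and lists were chosen with earlier results of these data known. Python 3.11 with pandas 2.3.3, numpy 2.4.6 and biopython 1.88 was used for all other steps. Alternatives were the pseudocount, the filter, the scaling, the libraries in the fit, the replicate block, the variance trend, the criteria and each library left out.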

Additional observations from a re-analysis of the deposited data

Results flagged for a closer look

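For 4 members the change relative to W differed between the first and the third stress, tested as the S3 against S1 contrast in limma, in which the W libraries cancel. The difference was 1.14 on the log2 scale for SWEET11 (adjusted p = 0.0121), 2.42 for SWEET13 (adjusted p = 0.000691), 6.18 for SWEET15 (adjusted p = 0.000744) and -2.09 for SWEET16 (adjusted p = 0.00393). These 4 were picked because this contrast called them, as it did 12.3% of all genes. Both S3 libraries lay above both S1 libraries for the first 3 genes and below them for SWEET16. That separation largely follows from the way they were picked and is no further support. The difference of SWEET11 did not pass without S1 replicate 1 (0.92) or without S3 replicate 1 (0.96). With 2 libraries per condition, no check for an outlying library was possible.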

How the results depend on the processing

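Of 432 alternative values of the members' fold changes, 415 kept their direction and their side of the criteria, 5 lost the call, 9 gained one and 3 changed sign, all 3 for SWEET17 in S3 against S1. Many of the 432 could not change sign. The filters, the replicate block, the variance trend, the criteria and a fit on only the libraries compared leave the fold change as it is. So does leaving out a library of the condition not compared. The number of members called in S1 against W, 5 as reported, was 8 without the criterion on fold change, and 3 to 6 with each library left out in turn, the 3 without S1 replicate 2. It ranged from 3 to 4 for S3 against S1 and from 8 to 9 for S3 against W with each library left out.

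With every library scaled to 1 common sum, the change from S1 to S3 turned to 0.0047 for SWEET17, 0.064 for SUC2 and 0.011 for ESL1, and that of SPSA1 from W to S1 to -0.051. With each library left out, uncalled changes that turned sign ranged from -0.42 to 0.26 for SWEET17, from -0.13 to 0.089 for SUC2, from -0.20 to 0.052 for ESL1, from -0.58 to 0.016 for VI2 and from -0.35 to 0.16 for SUS4 in S3 against S1. They ranged from -0.098 to 0.38 for ERDL6 and from -0.40 to 0.20 for CWINV1 in S3 against W, and from -0.048 to 0.12 for SPSA1 in S1 against W. The cause was not tested.

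Over 18454 genes, replicate differences of same-numbered libraries correlated with 0.155 between W and S1, 0.002 between W and S3 and -0.022 between S1 and S3, so the numbers are not shown to pair the samples. With the replicate block, the members called were 5 from W to S1, 4 from S1 to S3 and 8 from W to S3, the same genes as without it.

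With 2 replicates per condition, a change that was not called does not show equal levels. The p-values set a change against the spread between these replicates, pooled over the 3 conditions and moderated across genes. Values near 1 read, such as those of SWEET15 in W, limit any fold.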
